A study of Mus musculus with 14 samples.

Results

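The 9 genes Dnmt1, Uhrf1, Dnmt3a, Dnmt3b, Dnmt3l, Dppa3, Zfp57, Trim28 and Tet3, which write, maintain, protect or remove DNA methylation, were examined among the 20337 genes with a symbol in read counts from mouse oocytes. The members were chosen by name, and all 9 had a transcript in the count tables. Of the 28 RefSeq transcripts of these genes, the most highly counted of each gene represents it. Full-grown, germinal vesicle-intact oocytes were collected 48 h after eCG, from females 4 to 6 weeks old of a mixed, mostly C57BL6 background, and freed of cumulus cells by pipetting. Each of the 14 libraries was made from a pool of 20 oocytes of 3 or 4 mice. One set of groups concerns Ago2, which encodes the Argonaute protein that cleaves RNAs guided by endogenous siRNAs: Ago2 fl/fl controls (3 libraries, floxed alleles, called wild-type in the labels), Ago2 ADH (3 libraries, in which the allele left in the oocyte encodes a catalytically inactive AGO2) and Ago2 null (2 libraries). The other groups are Dicer WT (3 libraries) and Dicer KO (3 libraries), the latter without functional DICER, which makes small RNAs, in the oocyte. In the Ago2 crosses Cre was driven by the Zp3 promoter, which is active in growing oocytes, so protein made before excision may persist. The question here was how the transcripts of the methylation machinery differ when AGO2 cleavage, AGO2 itself or DICER is missing.

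Methylation of cytosine in CG dinucleotides is set anew while oocytes grow. The DNMT3A enzyme with its catalytically inactive partner DNMT3L writes most of it, including the marks of maternally imprinted genes. At DNA replication, UHRF1 recognizes the hemimethylated strand and brings in DNMT1, which copies the mark. After fertilization DPPA3 and the zinc finger protein ZFP57 with its corepressor TRIM28 protect methylated loci, while TET3, supplied by the egg, oxidizes 5-methylcytosine. These transcripts are therefore part of the maternal store that a full-grown oocyte hands to the embryo.

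Ago2 itself was measured first. Ago2 had 24.4, 25.9 and 24.6 CPM in Ago2 fl/fl, 14.1, 12.96 and 12.6 in Ago2 ADH and 7.34 and 5.37 in Ago2 null, in the order of the labels. CPM is the count scaled to a fixed total (counts per 1e+06 counts on transcripts of the library). Dicer1 had 753, 756 and 766 CPM in Dicer WT and 1814, 1746 and 1644 CPM in the libraries labelled Dicer KO, which is higher (log2 fold change 1.26). These counts cover the whole transcript, including exons that need not lie in the deleted segment, so they do not check that label, and directions below are those of the libraries labelled Dicer KO. Neither change was particular to its own mutant. Ago2 was also lower in Dicer KO than in Dicer WT (log2 fold change -0.56). Dicer1 was also higher in Ago2 ADH (0.67) and Ago2 null (0.59) than in Ago2 fl/fl.

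Libraries held 29380403 to 58285057 counts on transcripts, so 3 counts correspond to 0.0515 to 0.102 CPM. All 12 oocyte markers were above 0 in every library. Their summed level was 18563 to 19753 CPM in Ago2 fl/fl, 18329 to 18874 in Ago2 ADH and 18701 to 20497 in Ago2 null. It was lower in the Dicer libraries, with 13662 to 13977 CPM in Dicer WT and 12603 to 13509 in Dicer KO. The 15 cumulus and granulosa cell markers summed to 81.5 to 88.2 CPM in Ago2 fl/fl, 70.5 to 75.0 in Ago2 ADH, 60.2 to 65.4 in Ago2 null, 99.2 to 108 in Dicer WT and 79.3 to 84.6 in Dicer KO. Between 11 and 15 of these markers were above 0 in a library, and most of the sum came from Cyp19a1 and Nr5a2. Foxl2 and Ptx3 were at 0 in Ago2 fl/fl and in Dicer WT, but 12 or 13 of the 15 markers were above 0 in each library of these groups. The share of alignments set aside because the read aligned to several places was 33.2 to 34.6% in Ago2 fl/fl, 57.3 to 58.1% in Ago2 ADH, 57.0 to 58.3% in Ago2 null, 25.6 to 31.5% in Dicer WT and 44.4 to 49.5% in Dicer KO. The cumulus and granulosa marker sum and this share both moved with genotype. Their part in the results below, like that of the oocyte marker sum, was not tested. By the lane codes, the libraries of an Ago2 genotype shared 1 lane and each Dicer library had a lane to itself, so in the Ago2 groups effects of lane cannot be told apart from those of genotype. In these bulk libraries fewer cells of a type and less RNA per cell cannot be told apart either.

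Differences were tested with edgeR's quasi-likelihood test over all transcripts that passed its filter on low counts, with Benjamini-Hochberg adjustment, and called at a false discovery rate (FDR) of 1%. The fold changes of this test use normalized library sizes and so differ slightly from the ratios of the printed CPM. Counting took no account of strand, and Dnmt1, Dnmt3a, Dnmt3l, Tet3 and Trim28 overlap other annotated genes, whose reads cannot be told apart from theirs where exons coincide. All 9 members passed the filter in each comparison. In Ago2 ADH, 7 of 9 were called, 3 higher and 4 lower, against 40.7% of 18835 transcripts tested (20.5% higher and 20.1% lower). In Ago2 null, again 7 were called, 3 higher and 4 lower, against 37.2% of 19236 (18.1% higher and 19.1% lower). In Dicer KO, 5 were called, 2 higher and 3 lower, against 34.5% of 18570 (16.7% higher and 17.8% lower). With so many transcripts called, a call by itself says little about a gene, and the sizes below carry the description. Dnmt1, Dnmt3a and Dppa3 fell and Dnmt3b and Trim28 rose in each of the 3 mutants. The share of all transcripts called the same way in all 3 mutants was not determined, so this is not shown to be particular to the members. By the paper's own calls, most transcripts that changed in Ago2 ADH also changed the same way in Dicer KO. Uhrf1 was not called in any of them. The median log2 fold change of the members was 0.0089 in Ago2 ADH, -0.16 in Ago2 null and 0.055 in Dicer KO, beside 0.0069, 0.0018 and -0.0044 over all transcripts tested. Ago2 ADH and Ago2 null were compared with the same 3 Ago2 fl/fl libraries, so their agreement is not independent.

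**Figure D1:**
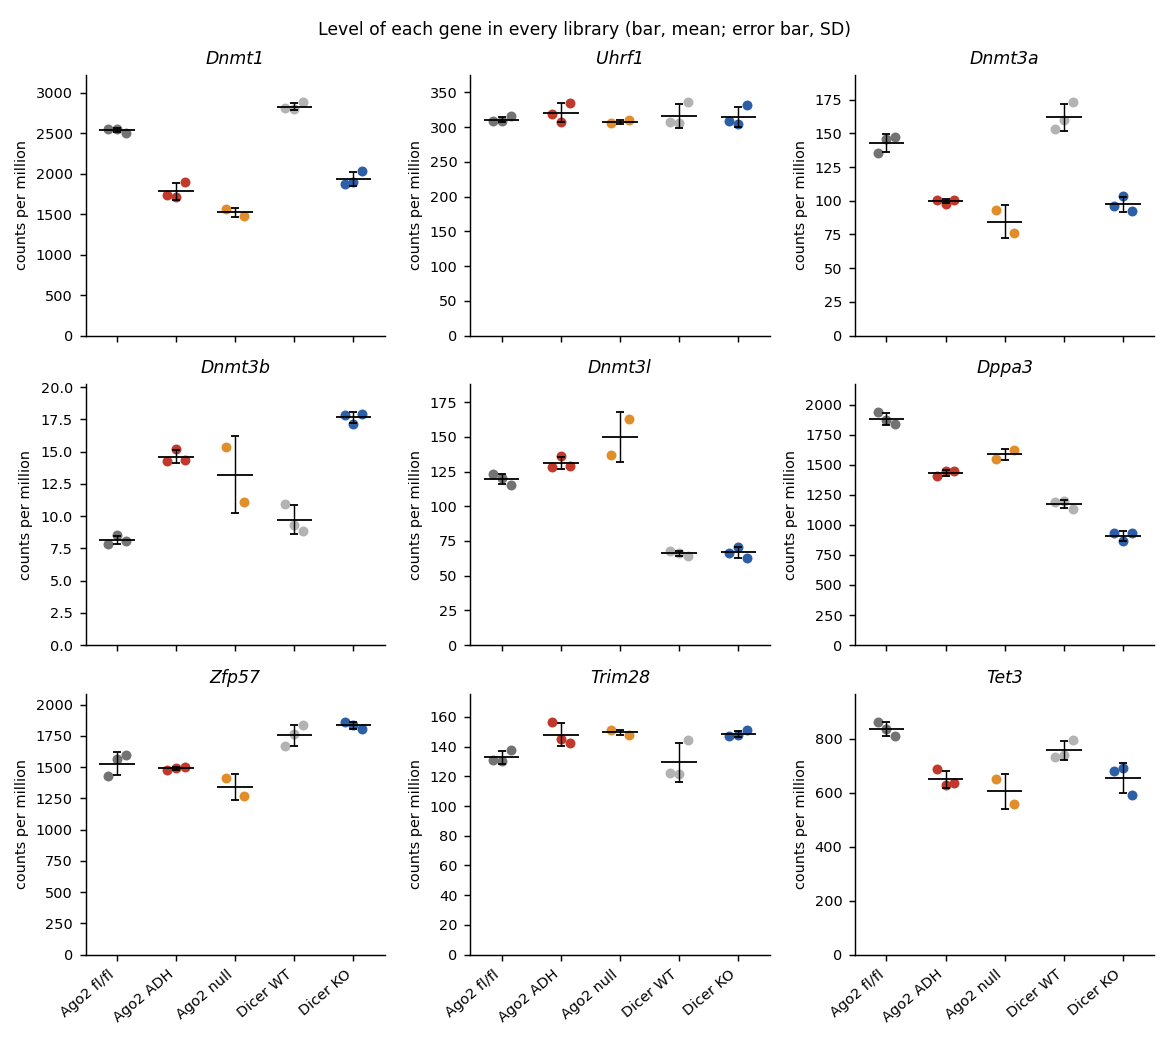
CPM of the 9 genes (vertical axis, from 0) in each of the 14 libraries, 1 point a library, by group, with the mean as a bar and the SD as an error bar. Dnmt1 and Dnmt3a lie lower in Ago2 ADH, Ago2 null and Dicer KO than in either control without overlap, Dnmt3b lies higher, and the points of Uhrf1 overlap.

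Dnmt1 encodes the maintenance methyltransferase and lies on chromosome 9 at 20907206 to 20959888 on the minus strand of mm10 (GRCm38). Oocytes are known to start Dnmt1 at an upstream first exon that somatic cells do not use. The transcript that stands for Dnmt1, NM_001199432, has the upstream first exon, of 156 bases at 20959733 to 20959888, and it had the highest count of the Dnmt1 transcripts in every library. It exceeded NM_001199431, whose first exon is at 20952708 to 20952979, by 1.78 to 2.36% of its counts. That difference was 1.85% ± 0.068 (SD, n = 3) in Ago2 fl/fl, 2.09% ± 0.213 (n = 3) in Ago2 ADH, 2.13% ± 0.057 (n = 2) in Ago2 null, 2.12% ± 0.257 (n = 3) in Dicer WT and 2.15% ± 0.162 (n = 3) in Dicer KO. In CPM it was 47.0, 37.2, 32.4, 59.9 and 41.5 in the same order, lower in each mutant than in its control, as the whole gene was. Since a read counts on every transcript that contains it, the other counts of these transcripts are shared and cannot be split by start.

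The 250 bases before the 2 Dnmt1 starts are shown because the upstream start, which the transcript standing for Dnmt1 uses, is poor in CG. Sequences come from RefSeq on GRCm38.p6, run 5′ to 3′ on the strand of the gene, and have each CG, the dinucleotide that these enzymes methylate, in capitals. CG reads the same on both strands.
Dnmt1 upstream start, chr9:20959889-20960138, minus strand: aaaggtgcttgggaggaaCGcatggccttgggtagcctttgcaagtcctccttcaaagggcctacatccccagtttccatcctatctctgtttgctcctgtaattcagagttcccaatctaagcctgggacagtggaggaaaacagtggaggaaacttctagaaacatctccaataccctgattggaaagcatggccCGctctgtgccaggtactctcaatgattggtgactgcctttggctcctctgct
Dnmt1 downstream start, chr9:20952980-20953229, minus strand: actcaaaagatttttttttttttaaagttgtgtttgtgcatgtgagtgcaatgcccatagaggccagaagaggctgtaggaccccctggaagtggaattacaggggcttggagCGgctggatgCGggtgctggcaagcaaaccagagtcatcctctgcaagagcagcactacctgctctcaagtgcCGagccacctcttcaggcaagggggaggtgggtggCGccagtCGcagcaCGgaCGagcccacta
The upstream start holds 2 CG and the downstream start 7, and the third Dnmt1 start of the table, next to the latter, holds 26. Among 32851 starts of the same length in RefSeq the median was 6 CG, 92.1% of starts held at least 1, and 81.2% and 46.3% held at least as many as these 2 starts.

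Dnmt1 fell in each mutant. It had 2549, 2549 and 2505 CPM in the Ago2 fl/fl libraries and 1732, 1713 and 1903 CPM in Ago2 ADH. The 2 Ago2 null libraries had 1559 and 1482 CPM, the lowest of all 14. Dicer WT had 2807, 2795 and 2880 CPM and Dicer KO 1873, 1893 and 2034. Controls and mutants did not overlap. Dnmt1 was 1.38-fold lower in Ago2 ADH (log2 -0.46, SE 0.046, edgeR adjusted p = 9.5e-08), 1.64-fold lower in Ago2 null (log2 -0.71, SE 0.050, adjusted p = 4.9e-09) and 1.402-fold lower in Dicer KO (log2 -0.49, SE 0.057, adjusted p = 1.0e-06).

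Uhrf1, whose product brings DNMT1 to hemimethylated DNA, lies on chromosome 17 at 56303337 to 56323486. It had 308, 309 and 316 CPM in Ago2 fl/fl, 319, 307 and 335 in Ago2 ADH and 306 and 310 in Ago2 null. Dicer WT had 307, 306 and 335 CPM and Dicer KO 308, 304 and 332. The groups overlapped in each of these comparisons. The log2 difference from the control was 0.089 in Ago2 ADH (95% interval -0.009 to 0.19, adjusted p = 0.12), 0.012 in Ago2 null (-0.10 to 0.12, adjusted p = 0.88) and 0.055 in Dicer KO (-0.076 to 0.19, adjusted p = 0.50). The intervals exclude a fall of the size seen for Dnmt1. Per length, Dnmt1 stood at 5.57 times the level of Uhrf1 in Ago2 fl/fl, 3.80 in Ago2 ADH, 3.38 in Ago2 null, 6.12 in Dicer WT and 4.20 in Dicer KO. This ratio and those below were chosen after the values were seen and are given without a test.

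Among the de novo enzymes, Dnmt3a and Dnmt3b moved in opposite directions. Dnmt3a, the enzyme that methylates the growing oocyte's genome, lies on chromosome 12 at 3801559 to 3914443, and Dnmt3b, the related enzyme best known from the early embryo, on chromosome 2 at 153649411 to 153687730. Dnmt3a had 135, 146 and 147 CPM in Ago2 fl/fl and 101, 97.9 and 101 in Ago2 ADH. It had 93.1 and 76.0 CPM in Ago2 null. Dicer WT had 153, 160 and 173 CPM and Dicer KO 96.0, 103 and 92.3. Mutants were below their controls without overlap. Dnmt3a was 1.39-fold lower in Ago2 ADH (log2 -0.47, SE 0.052, adjusted p = 4.1e-07), 1.66-fold lower in Ago2 null (log2 -0.73, SE 0.078, adjusted p = 8.2e-07) and 1.60-fold lower in Dicer KO (log2 -0.68, SE 0.072, adjusted p = 3.0e-07).

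Dnmt3b, the least abundant of the 9, had 7.86, 8.51 and 8.10 CPM in Ago2 fl/fl and 14.3, 15.2 and 14.3 in Ago2 ADH. Ago2 null had 15.3 and 11.1 CPM. Dicer WT had 11.0, 9.34 and 8.82 CPM and Dicer KO 17.9, 17.2 and 17.9. Every mutant library lay above its controls, and the 2 Ago2 null libraries lay further apart than those of the other mutants. Dnmt3b was 1.85-fold higher in Ago2 ADH (log2 0.88, SE 0.10, adjusted p = 8.6e-07), 1.65-fold higher in Ago2 null (log2 0.72, SE 0.14, adjusted p = 0.00036) and 1.90-fold higher in Dicer KO (log2 0.92, SE 0.12, adjusted p = 7.1e-06). Without Ago2 null replicate 1 the value in Ago2 null was 0.48 and the call was lost (adjusted p = 0.015, the highest of 13 alternatives, the lowest being 6.5e-06). Its 9 transcripts differ in exons, and the log2 ratio of the highest to the lowest counted was 0.13 in Ago2 ADH and 0.098 in Ago2 fl/fl (2-sided exact permutation test p = 0.2) and 0.15 in Dicer KO and 0.10 in Dicer WT (p = 0.3), where 3 libraries against 3 cannot give a p below 0.1.

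The 250 bases before the internal Dnmt3a start and before the Dnmt3b start are shown for the pair of enzymes that moved apart, on the plus strand, with each CG in capitals. The internal Dnmt3a start opens the shorter form known from germ cells and embryonic stem cells.
Dnmt3a internal start, chr12:3891494-3891743, plus strand: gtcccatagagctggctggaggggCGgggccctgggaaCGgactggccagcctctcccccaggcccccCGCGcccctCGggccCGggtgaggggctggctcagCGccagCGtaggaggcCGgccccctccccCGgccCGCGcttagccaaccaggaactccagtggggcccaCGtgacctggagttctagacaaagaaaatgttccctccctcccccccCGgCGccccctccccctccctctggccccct
Dnmt3b start, chr2:153649199-153649448, plus strand: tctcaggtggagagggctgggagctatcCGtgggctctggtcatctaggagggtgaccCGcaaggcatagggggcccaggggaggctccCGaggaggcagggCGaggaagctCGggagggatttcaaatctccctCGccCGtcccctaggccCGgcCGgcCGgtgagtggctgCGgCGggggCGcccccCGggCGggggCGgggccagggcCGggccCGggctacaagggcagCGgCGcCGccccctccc
The 2 stretches hold 15 and 21 CG, where the other 2 Dnmt3a starts hold 38 and 40, and 27.3% and 16.3% of RefSeq starts held at least as many.

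Per length, in RPKM, which is CPM divided by transcript length in kilobases, Dnmt3b amounted to 15.2% ± 0.48 of Dnmt3a in Ago2 fl/fl (SD, n = 3) and 39.0% ± 2.02 in Ago2 ADH (n = 3). In Ago2 null it was 41.5% ± 3.55 (n = 2). It was 16.1% ± 2.77 in Dicer WT and 48.5% ± 3.87 in Dicer KO (n = 3 each). These values use the length of the longest Dnmt3a transcript. It and the shortest differed by -1 to 28 counts in a library, while their lengths differ by 4261 bases. Few counts thus set the longest apart, and its length may understate the level of Dnmt3a per length. Which transcript was present was not tested. With the shortest length the percentages were 8.54, 21.9, 23.3, 9.02 and 27.2 in the same order, so the order of the groups was the same and the level of the ratio was not.

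Dnmt3l encodes the partner of DNMT3A that is needed for maternal imprints and lies on chromosome 10 at 78042287 to 78063622. It had 123, 120 and 115 CPM in Ago2 fl/fl, 128, 136 and 129 in Ago2 ADH and 137 and 163 in Ago2 null. Dicer WT had 68.0, 66.3 and 64.1 CPM and Dicer KO 66.6, 70.8 and 62.9. The Ago2 mutants lay above their controls without overlap, and the Dicer groups overlapped at about the same level. Dnmt3l was 1.13-fold higher in Ago2 ADH (log2 0.18, SE 0.053, adjusted p = 0.0084) and 1.28-fold higher in Ago2 null (log2 0.35, SE 0.072, adjusted p = 0.00073). In Dicer KO the difference was 0.076 (95% interval -0.078 to 0.23, adjusted p = 0.42). The call in Ago2 ADH was lost without Ago2 fl/fl replicate 2 or 3 or any 1 of the Ago2 ADH replicates (log2 0.15 to 0.20, adjusted p 0.015 to 0.054, and 0.0039 to 0.12 over all 14 alternatives). That in Ago2 null was lost without Ago2 null replicate 2 (log2 0.21, adjusted p = 0.023, where the 13 alternatives began at 1.5e-05). Relative to Dnmt3a, per length, Dnmt3l stood at 4.46 in Ago2 fl/fl, 6.99 in Ago2 ADH, 9.60 in Ago2 null, 2.18 in Dicer WT and 3.65 in Dicer KO. These ratios, too, use the longest Dnmt3a transcript. With the shortest length Dnmt3a had 26.3, 18.3, 15.5, 29.9 and 17.9 RPKM in the same order, which would make the ratios lower.

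**Figure D2:**
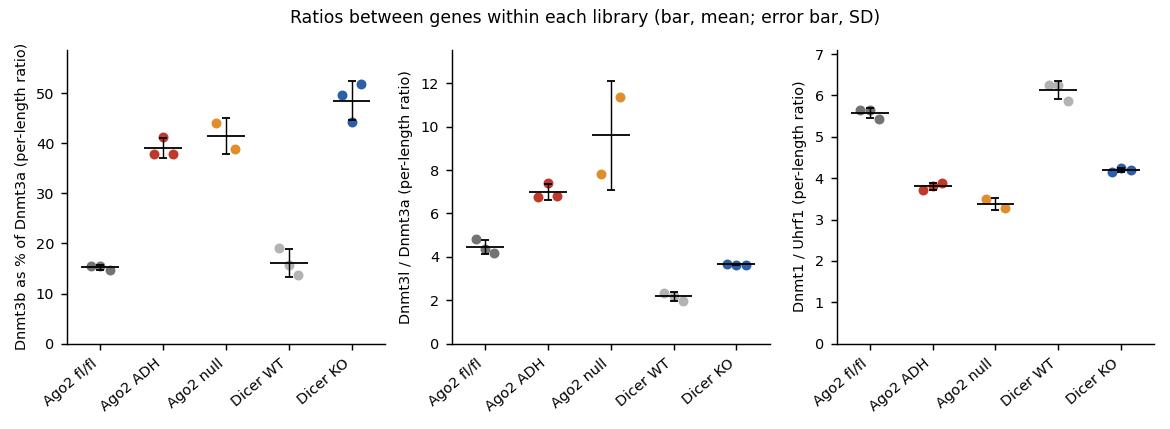
Ratios of levels per length within a library, 1 point a library, by group, with the mean as a bar and the SD as an error bar. The panels show Dnmt3b as a percentage of Dnmt3a, Dnmt3l over Dnmt3a and Dnmt1 over Uhrf1. Dnmt3a is taken at the length of its longest transcript, and with the shortest length its ratios are lower. Dnmt3b as a percentage of Dnmt3a rises from 15.2 in Ago2 fl/fl to 39.0 in Ago2 ADH and 41.5 in Ago2 null, and from 16.1 in Dicer WT to 48.5 in Dicer KO.

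Dppa3, also known as Stella or PGC7, guards the maternal genome from loss of methylation in the zygote and lies on chromosome 6 at 122626424 to 122630271. It had 1940, 1876 and 1839 CPM in Ago2 fl/fl and 1404, 1447 and 1450 in Ago2 ADH. Ago2 null, with 1552 and 1621 CPM, lay between. Dicer WT had 1188, 1199 and 1132 CPM and Dicer KO 932, 863 and 933. No mutant library reached its controls. Dppa3 was 1.27-fold lower in Ago2 ADH (log2 -0.35, SE 0.042, adjusted p = 1.4e-06), 1.17-fold lower in Ago2 null (log2 -0.22, SE 0.052, adjusted p = 0.0019) and 1.23-fold lower in Dicer KO (log2 -0.30, SE 0.058, adjusted p = 0.00028). The call in Ago2 null was lost without Ago2 fl/fl replicate 2 (log2 -0.22, adjusted p = 0.022) or Ago2 null replicate 1 (log2 -0.18, adjusted p = 0.018), and adjusted p ran from 0.00014 to 0.022 over 13 alternatives.

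Zfp57 encodes the zinc finger protein that binds methylated imprinting control regions and lies on chromosome 17 at 37001163 to 37010729. It had 1426, 1567 and 1593 CPM in Ago2 fl/fl, 1479, 1493 and 1498 in Ago2 ADH and 1413 and 1270 in Ago2 null. Dicer WT had 1668, 1764 and 1834 CPM and Dicer KO 1864, 1835 and 1806. The groups overlapped except for Ago2 null, which was just below its controls. The log2 difference was 0.0089 in Ago2 ADH (95% interval -0.085 to 0.10, adjusted p = 0.89), -0.16 in Ago2 null (-0.29 to -0.038, adjusted p = 0.030) and 0.13 in Dicer KO (-0.0019 to 0.25, adjusted p = 0.10), and none was called. Without Ago2 fl/fl replicate 1 (log2 -0.20, adjusted p = 0.0092) or Ago2 null replicate 1 (log2 -0.23, adjusted p = 0.0060) the value in Ago2 null was called, with adjusted p from 0.0060 to 0.24 over 13 alternatives.

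Trim28, the corepressor that ZFP57 and many other zinc finger proteins recruit, lies on chromosome 7 at 13024152 to 13031032. It had 131, 130 and 138 CPM in Ago2 fl/fl, 157, 145 and 142 in Ago2 ADH and 151 and 148 in Ago2 null. Dicer WT had 123, 122 and 145 CPM and Dicer KO 147, 148 and 151, so the mutants lay above their controls, in Dicer KO by a narrow margin over Dicer WT replicate 3. Trim28 was 1.15-fold higher in Ago2 ADH (log2 0.20, SE 0.052, adjusted p = 0.0030), 1.15-fold higher in Ago2 null (log2 0.20, SE 0.058, adjusted p = 0.0098) and 1.20-fold higher in Dicer KO (log2 0.26, SE 0.074, adjusted p = 0.0078). These calls were thin. That in Ago2 ADH was lost without Ago2 fl/fl replicate 1 or 2 or Ago2 ADH replicate 1 (log2 0.16 to 0.19), that in Ago2 null without any 1 of its 5 libraries (log2 0.19 to 0.22), and that in Dicer KO without any 1 of its libraries but Dicer WT replicate 3 (log2 0.20 to 0.27).

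Tet3, the dioxygenase that acts on the zygotic genome, lies on chromosome 6 at 83362373 to 83457208 on the minus strand. It had 863, 837 and 810 CPM in Ago2 fl/fl, 686, 628 and 636 in Ago2 ADH and 651 and 557 in Ago2 null. Dicer WT had 732, 741 and 796 CPM and Dicer KO 679, 693 and 591. Mutants were below controls without overlap in each comparison, with the smallest gap in Dicer KO. Tet3 was 1.25-fold lower in Ago2 ADH (log2 -0.32, SE 0.047, adjusted p = 1.4e-05) and 1.36-fold lower in Ago2 null (log2 -0.44, SE 0.064, adjusted p = 2.5e-05). In Dicer KO the difference of -0.15 was not called (95% interval -0.30 to 0.0039, adjusted p = 0.10), but it was when libraries were scaled by their totals alone (log2 -0.21, adjusted p = 0.0074, where the 14 alternatives reached 0.44).

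**Figure D3:**
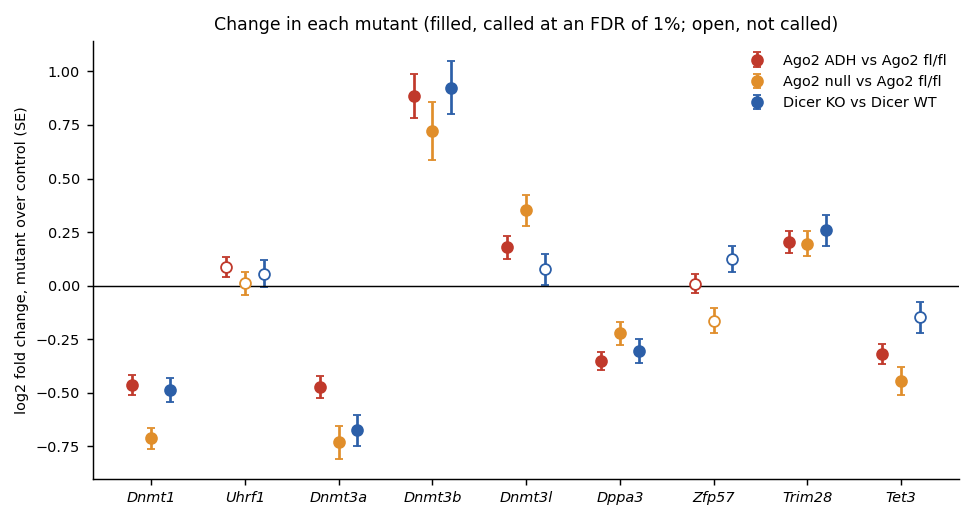
Log2 fold change of each gene against its control (vertical axis) in Ago2 ADH, Ago2 null and Dicer KO from the edgeR fit, with the SE as an error bar and filled points for genes called at an FDR of 1%. Dnmt1 lies between -0.46 and -0.71, Dnmt3a between -0.47 and -0.73 and Dnmt3b between 0.72 and 0.92, while the points of Uhrf1 are open and lie between 0.012 and 0.089.

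The level of each gene per length spanned a wide range. In Ago2 fl/fl the order of mean RPKM was Dppa3 2263, Zfp57 874, Dnmt1 483, Uhrf1 86.7, Tet3 76.7, Dnmt3l 65.6, Trim28 40.9, Dnmt3a 14.7 and Dnmt3b 2.25. The ranges of neighbours in this order did not overlap. Dppa3 exceeded 99.98% of 20241 genes ranked, and Dnmt3b exceeded 60.1%. In Dicer WT the order was Dppa3 1408, Zfp57 1004, Dnmt1 539, Uhrf1 88.1, Tet3 69.4, Trim28 39.9, Dnmt3l 36.3, Dnmt3a 16.7 and Dnmt3b 2.67, where Trim28 (37.4 to 44.6) and Dnmt3l (35.2 to 37.3) nearly met. Dnmt3l took the place of Tet3 in Ago2 ADH, at 72.0 RPKM against 59.6, and in Ago2 null, at 82.3 against 55.4. Uhrf1 (85.2 to 86.4 RPKM) and Dnmt3l (75.3 to 89.2) overlapped in Ago2 null. Dppa3, Zfp57 and Dnmt1 held the first 3 places in each of the 5 groups and Dnmt3a and Dnmt3b the last 2. With the shortest Dnmt3a transcript length its level was 26.3 RPKM in Ago2 fl/fl and 17.9 in Dicer KO and its place was the same. Between the controls, ranges of CPM in Ago2 fl/fl and Dicer WT overlapped only for Uhrf1 and Trim28, and Dnmt3l stood at 119.6 CPM in the first and 66.1 in the second. The share of all transcripts without overlap was not determined, so this is not shown to be particular to the members. The Ago2 and Dicer libraries were sequenced separately, so these gaps between the controls cannot be told apart from gaps between runs.

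**Figure D4:**
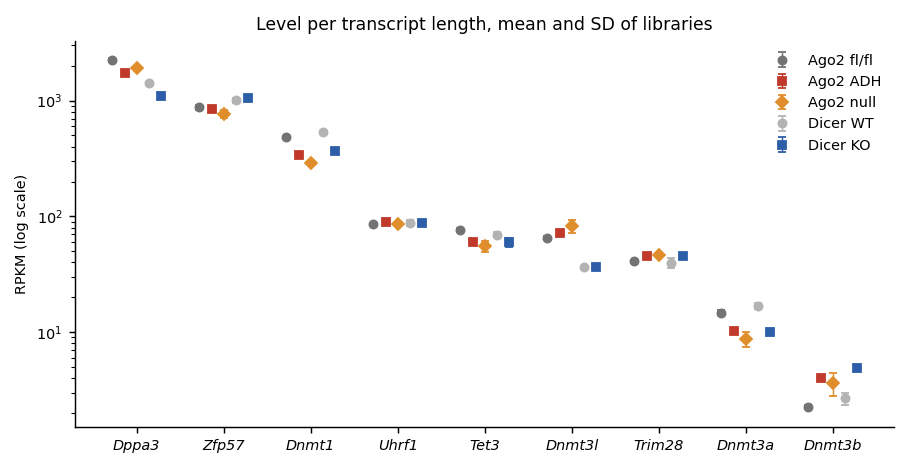
Mean level per length of the 9 genes in each group, in RPKM on a log axis, with the SD of the libraries as an error bar. Dppa3, Zfp57 and Dnmt1 are the highest 3 in each group, and Dnmt3b, from 2.25 to 4.86 RPKM, is the lowest.

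The question whether the catalytically inactive allele acts like the missing protein was addressed by comparing Ago2 ADH with Ago2 null. No member was called by edgeR or by DESeq2, where 0.119% of 19306 transcripts were called by edgeR (0.0673% higher and 0.0518% lower). By edgeR, 5 members had an unadjusted p under 0.05, as did 1931 of the 19306 transcripts. Dnmt1 was higher in Ago2 ADH by 0.23 on the log2 scale (95% interval 0.11 to 0.36, adjusted p = 0.14) and Dnmt3a by 0.24 (0.074 to 0.41, adjusted p = 0.29). Ranges of CPM did not overlap between these groups for Dnmt1, Dnmt3a, Dppa3, Dnmt3l and Zfp57, and overlapped for the other members. The share of all transcripts without overlap was not determined, so this is not shown to be particular to these genes. Dppa3 differed by -0.15 (-0.26 to -0.030, adjusted p = 0.37), Dnmt3l by -0.19 (-0.35 to -0.031, adjusted p = 0.41) and Zfp57 by 0.15 (0.032 to 0.27, adjusted p = 0.37). Dnmt3b differed by 0.14 with a wide interval (-0.14 to 0.43), Tet3 by 0.11 (-0.034 to 0.25) and Trim28 by -0.013 (-0.15 to 0.13). The missing calls do not show equal levels.

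The Ago2 ADH effect was also set against the Dicer KO effect in one fit with an interaction term. By edgeR, 2 members had an unadjusted p under 0.05, as did 4550 of 19500 transcripts, so such values were common. No member was called by either tool, where edgeR called 3.55% of the 19500 transcripts, 234 (1.2%) higher and 458 (2.35%) lower. That split depended on scaling, with 346 higher and 351 lower by library totals and 289 higher and 387 lower by relative log expression factors. The effects differed by -0.22 for Tet3 (95% interval -0.41 to -0.036, adjusted p = 0.13) and by -0.17 for Zfp57 (-0.32 to -0.016, adjusted p = 0.17). For Dnmt1 the difference was -0.027 (-0.17 to 0.12), for Dnmt3a 0.15 (-0.029 to 0.33) and for Dnmt3b -0.092 (-0.41 to 0.23). For Dppa3 it was -0.097 (-0.24 to 0.050), for Trim28 -0.11 (-0.30 to 0.085) and for Dnmt3l 0.052 (-0.13 to 0.24). That Dnmt3l and Tet3 were called in Ago2 ADH and not in Dicer KO was thus not shown to be a difference between the mutants.

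Other genes of the methylation pathway were followed in lists taken by function. Over all transcripts tested, 40.7% were called in Ago2 ADH, 37.2% in Ago2 null and 34.5% in Dicer KO. In these lists and mutants 31 to 57% of the genes tested were called, and no list was tested against all transcripts. The first held 28 other writers, erasers and readers of DNA methylation. In Ago2 ADH 22 were tested, 7 rose, 5 fell and 10 were not called (median log2 -0.026). In Ago2 null 7 of 23 rose and 5 fell (median -0.069), and in Dicer KO 8 of 24 rose and 5 fell (median 0.031). In both Ago2 ADH and Dicer KO, 6 rose and 4 fell among those with a mean of at least 100 counts. The share of all transcripts called the same way in both at that count was not determined, so these numbers are not shown to be particular to the list. The dioxygenase Tet2, related to Tet3, rose by 1.39 in Ago2 ADH, 1.18 in Ago2 null and 0.72 in Dicer KO on the log2 scale, and in the same order the repair glycosylase Mbd4 rose by 0.69, 0.77 and 1.21, and Cdca7l by 0.61, 0.59 and 0.65. Trdmt1 (Dnmt2), which methylates transfer RNA, fell, with log2 values of -0.75, -0.995 and -1.12. The chromatin remodeler Hells, which helps DNA methyltransferases reach DNA, fell with -0.67, -0.51 and -0.45, and the insulator protein Ctcf with -0.36, -0.50 and -0.29. Zbtb33 (Kaiso), a methyl-CG reader, had -0.24, -0.37 and -0.35, and its call in Ago2 ADH was lost without Ago2 fl/fl replicate 2 or 3 or Ago2 ADH replicate 1 or 2 (-0.26 to -0.20). The Ago2 ADH and Dicer KO effects of Mbd4 differed (interaction -0.57).

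The second list held 15 histone regulators that shape methylation of oocyte DNA, all tested. In Ago2 ADH 5 rose and 3 fell, and in Ago2 null and in Dicer KO 4 rose and 4 fell. Kdm1b, the demethylase of histone H3 lysine 4 that several maternal imprints need, rose from 172 CPM in Ago2 fl/fl to 325 in Ago2 ADH and 324 in Ago2 null and from 250 in Dicer WT to 349 in Dicer KO (log2 0.96, 0.94 and 0.54). Kmt2a, a methyltransferase of the same residue, rose from low levels with 1.94, 2.08 and 1.76. Of the Polycomb repressive complex, Eed fell with -0.72, -0.73 and -0.59 and Suz12 with -0.54, -0.56 and -0.50, while the catalytic subunit Ezh2 rose with 0.28, 0.38 and 0.35. Nsd1, which methylates histone H3 lysine 36, fell with -0.50, -0.48 and -0.36. The median of the list was -0.021 in Ago2 ADH, -0.034 in Ago2 null and 0.17 in Dicer KO.

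Of 17 partners of TRIM28 and heterochromatin proteins, 16 had a transcript and were tested. In Ago2 ADH 4 rose and 3 fell, in Ago2 null 4 and 5, and in Dicer KO 3 and 5, with medians of 0.12, 0.018 and -0.13. Cbx5, which encodes the heterochromatin protein HP1 alpha, had 0.46, 0.34 and 0.33, and Suv39h1, a histone H3 lysine 9 methyltransferase, fell with -0.48, -0.55 and -0.39. Of the KRAB zinc finger genes, Zfp809 had 0.55, 0.74 and 2.08 and Zfp568 -0.35, -0.79 and -0.75, and the Ago2 ADH and Dicer KO effects of Zfp809 differed (interaction -1.59). Leaving out 1 library moved several of these calls. Cbx5 lost its call in Ago2 null without Ago2 fl/fl replicate 2 or 3 or Ago2 null replicate 2 (0.23 to 0.37) and in Dicer KO without Dicer WT replicate 1 or 2 or Dicer KO replicate 2 (0.28 to 0.33). Zfp809 lost it in Ago2 ADH without Ago2 fl/fl replicate 2 or 3 or Ago2 ADH replicate 1 or 3 (0.47 to 0.53) and in Ago2 null without Ago2 null replicate 2 (0.67), and Zfp568 in Ago2 ADH without Ago2 fl/fl replicate 1 or 3 or Ago2 ADH replicate 2 (-0.32 to -0.29).

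Of 16 genes of the methyl donor cycle, which supplies S-adenosylmethionine, 14 were tested in Ago2 ADH, of which 3 rose and 3 fell. In Ago2 null 3 of 16 rose and 2 fell, and in Dicer KO 3 of 14 rose and 5 fell, with medians of -0.0044, 0.020 and -0.014. Shmt2, the mitochondrial serine hydroxymethyltransferase, rose with 0.91, 0.90 and 1.16. Mtap, of methionine salvage, fell with -0.71, -0.76 and -0.44, though not in Dicer KO without Dicer WT replicate 1 or Dicer KO replicate 2 (-0.39 to -0.35). Amd1, which draws S-adenosylmethionine into polyamines, had -0.47, -0.31 and -0.54, and its call in Ago2 null was lost without any 1 of the Ago2 fl/fl replicates or Ago2 null replicate 1 (-0.33 to -0.12). Mat2b, the regulatory subunit of the enzyme that makes S-adenosylmethionine, had -0.58 in Ago2 ADH, -0.33 in Dicer KO and -0.32 in Ago2 null, the last not called (adjusted p = 0.11). Its call in Ago2 ADH was lost without Ago2 ADH replicate 1 (-0.52) and in Dicer KO without Dicer WT replicate 1 or Dicer KO replicate 2 (-0.32 to -0.27), and its value in Ago2 null was called without Ago2 null replicate 2 (-0.63).

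The last list held 56 imprinted genes, of which 49 had a transcript. In Ago2 ADH 38 were tested, 14 rose and 5 fell, in Ago2 null 10 of 38 rose and 6 fell, and in Dicer KO 12 of 36 rose and 6 fell. The median log2 fold change was 0.17, 0.20 and 0.070. The effects of Ago2 ADH and Dicer KO differed for 5 genes of the lists, Mbd4, Zfp809, Usp7 (-0.73), Arid4a (0.61) and, of the imprinted genes, Impact (1.86), the last 3 named after their values were seen. Over all transcripts tested, 3.55% were called in this interaction. Trappc9, a trafficking gene that hosts the imprinted Peg13, rose from 612 CPM in Ago2 fl/fl to 2556 in Ago2 ADH and 2523 in Ago2 null and from 497 in Dicer WT to 1736 in Dicer KO (log2 2.11, 2.07 and 1.87). Phlda2, a growth regulator of the placenta, rose from low levels with 1.43, 1.61 and 1.82. Snrpn rose with 1.01, 1.03 and 1.18 and Snurf, read from the same transcript unit, with 0.75, 0.74 and 0.84, so these 2 share reads and are not separate observations. Snurf was not called in Ago2 null without Ago2 null replicate 1 (0.60). Ppp1r9a fell with -1.10, -1.24 and -1.37, Usp29 with -0.71, -1.01 and -0.82 and Igf2r, the receptor that clears IGF2, with -0.56, -0.66 and -0.79. The ubiquitin ligase Ube3a had -0.31, -0.37 and -0.50, and its call was lost in Ago2 ADH without Ago2 fl/fl replicate 2 or Ago2 ADH replicate 2 (-0.27 to -0.26) and in Ago2 null without Ago2 fl/fl replicate 2 or 3 or Ago2 null replicate 1 (-0.37 to -0.29). These are total transcript levels and carry no information on which parental allele they came from.

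**Figure D5:**
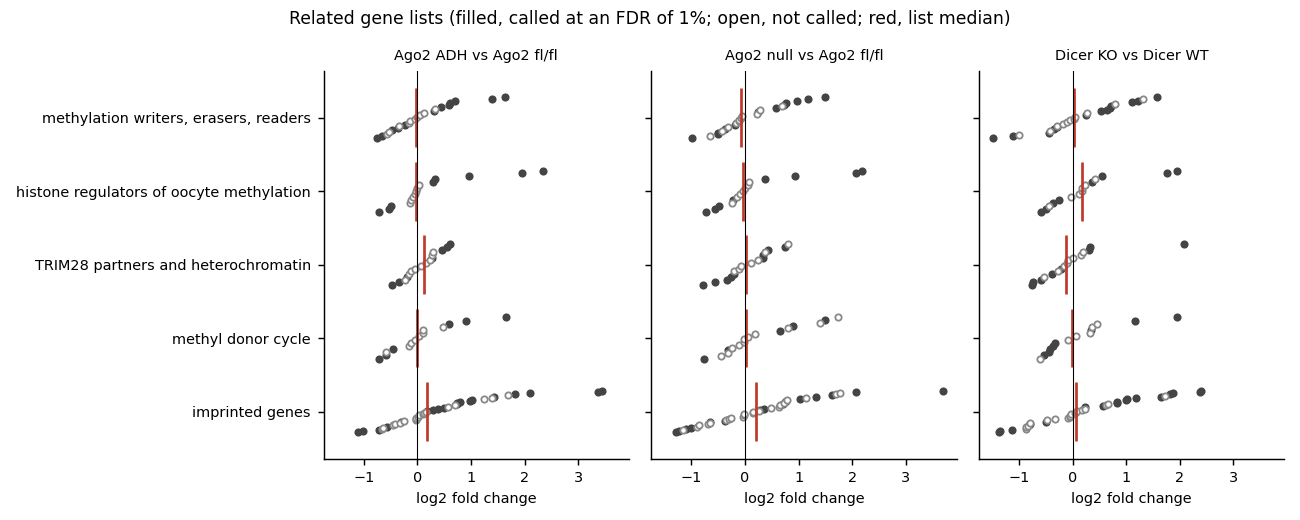
Log2 fold change (horizontal axis) of each tested gene of the 5 lists in Ago2 ADH, Ago2 null and Dicer KO, 1 point a gene, filled where called at an FDR of 1%, with the list median as a red line. Each list holds genes called in both directions, for example 7 higher and 5 lower of 22 writers, erasers and readers in Ago2 ADH.

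The genes whose pattern over the 14 libraries was most like that of Dnmt1 were Gpatch8, Cnot1 and Wdr20, of 10233 genes with a mean of at least 100 counts. Likeness was the root mean square difference of log2(CPM + 0.5) after each gene was centred on its own mean, and it was 0.058, 0.060 and 0.063 for these 3, beside a median of 0.42 over all genes. Cnot1, the scaffold of the deadenylase complex, had log2 fold changes of -0.50 in Ago2 ADH, -0.70 in Ago2 null and -0.59 in Dicer KO. The genes most like Dnmt3a were Dnajc1, Max and Slc39a10, at 0.061, 0.067 and 0.072, where the median was 0.44. The libraries compared share groups and, for Ago2, lanes, so these likenesses describe the pattern alone.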

How the data were processed

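RNA was sequenced from pools of 20 oocytes, 14 libraries in 5 groups. The values the authors deposited are raw counts per RefSeq transcript. Per the labels and the methods, the authors aligned reads with TopHat2 (2.0.7 in the processing notes) to mm10, keeping up to 100 alignments, and counted them without regard to strand with HTSeq 0.6.1. The methods give separate alignment settings, with different mismatch limits, for reads of different lengths, without saying which libraries had which. The part of these settings in the results was not tested. Reads with several alignments went to a separate tally. A read counts on each transcript of a gene that contains it. DESeq 1.10.0 is also named in the notes. Its results were not used here.

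Of 26495 transcript IDs, 26081 matched RefSeq and 113 more GENCODE, and 301 stayed without a symbol. CPM divide by the counts on transcripts, and RPKM also by transcript length from GENCODE. Counts were tested with edgeR 4.0.16 in R 4.3.3 (quasi-likelihood, TMM factors, filterByExpr with a minimum count of 10 and a minimum total of 15), fitted on the libraries of the groups compared, with Benjamini-Hochberg adjustment over all transcripts tested and an FDR of 1%. An interval is the fold change with its SE times the t quantile of the fit. Intervals and floors cover only these libraries: without molecular identifiers, reads amplified from 1 molecule cannot be recognized, and p-values measure the spread between pools of oocytes, which may be technical. The fits were tested on simulated data.

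Groups follow the sample titles. Alternatives were an FDR of 5%, DESeq2 1.42.0, other scalings, no filter, 1 transcript per gene, 1 fit over 14 libraries, a replicate block, other transcript lengths and leaving out each library. The shortest Dnmt3a length was added after seeing the data. The genes and lists were chosen with earlier results of these data known. List genes are named where called the same way in Ago2 ADH and Dicer KO with a mean of at least 100 counts, at most the 4 largest changes in each direction. Ago2 and Dicer1 were named as the check of the labels. For the member with the smallest p in Ago2 ADH and in Dicer KO, the 3 genes most alike were named. One gene that met this rule is not reported here.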

Additional observations from a re-analysis of the deposited data

Results flagged for a closer look

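The tally of reads aligned to several places, which the gene counts leave out, was higher in the mutants than in their controls. It held a mean of 57.7% of alignments in Ago2 ADH and 57.6% in Ago2 null, beside 33.7% in Ago2 fl/fl, and 46.3% in Dicer KO, beside 28.4% in Dicer WT. What these reads hold was not tested.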

How the results depend on the processing

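The number of members called stayed within 1.5 times in each comparison: 5 to 7 in Ago2 ADH, 5 to 8 in Ago2 null, 4 to 5 in Dicer KO and 0 in Ago2 ADH against Ago2 null and in the interaction, under each alternative run. Numbers of libraries, 2 or 3 a group, and of counts for Dnmt3b limit the precision.

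Reversed signs concerned only values that were not called. With DESeq2 and with relative log expression factors the interaction became 0.0036 and 0.0036 for Dnmt1 and 0.013 and 0.013 for Uhrf1, and with library totals 0.040 and 0.049. With library totals Uhrf1 became -0.014 in Ago2 null and -0.0049 in Dicer KO and Zfp57 -0.036 in Ago2 ADH. In 1 fit over 14 libraries Uhrf1 in Ago2 null was -0.019 and Zfp57 in Ago2 ADH -0.038, and without a filter the latter was -0.0014. Leaving out 1 library gave ranges of -0.074 to 0.0026 (Dnmt1), -0.0052 to 0.093 (Dnmt3l) and -0.077 to 0.021 (Uhrf1) for the interaction. They were -0.065 to 0.39 (Dnmt3b) and -0.047 to 0.013 (Trim28) for Ago2 ADH against Ago2 null, -0.0065 to 0.032 for Uhrf1 in Ago2 null and -0.038 to 0.030 for Zfp57 in Ago2 ADH.

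Outside leaving out libraries, Dnmt3l in Ago2 ADH also lost its call with library totals, no filter, 1 transcript per gene and 1 fit over 14 libraries. Trim28 lost its call with library totals in each mutant, with 1 fit over 14 libraries in both Ago2 mutants, and with no filter and 1 transcript per gene in Ago2 null. Zfp57 in Ago2 null was called at an FDR of 5% and with no filter. Mat2b lost its call in Ago2 ADH with DESeq2 (adjusted p = 0.071) and in Dicer KO with 1 fit over 14 libraries. Leaving out 1 library, 4 to 7 partners of TRIM28 and heterochromatin proteins were called in Ago2 ADH, 3 to 8 in Ago2 null and 5 to 7 in Dicer KO, and 3 to 7 genes of the methyl donor cycle in Dicer KO.

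The replicate number was not shown to pair the samples. Log CPM were centred on the mean of each group, over transcripts above a minimum mean count, and same-numbered libraries were then correlated. The correlations were 0.017 to 0.052 between Ago2 ADH and Ago2 fl/fl and -0.093 and -0.036 between Ago2 null and Ago2 fl/fl. Between Dicer KO and Dicer WT they were -0.17 to 0.038, and between Ago2 ADH and Ago2 null 0.065 and 0.021. Centred in this way, the Ago2 null libraries mirror each other, so their values are not separate observations. Differently numbered libraries were not compared, and a shared collection was not tested. With the replicate number as a block, 6 members were called in Ago2 ADH, 5 in Ago2 null and 4 in Dicer KO. Dnmt3l in Ago2 ADH (0.18), Dppa3 in Ago2 null (-0.25) and Trim28 in Ago2 null (0.22) and Dicer KO (0.26) lost their calls, Mat2b in Ago2 null gained one (-0.44), and Trim28 in Ago2 ADH against Ago2 null became 0.012.

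Over all transcripts, 23 were called between Ago2 ADH and Ago2 null, 81 with DESeq2, 94 without a filter, 142 with the block, 56 at an FDR of 5% and 6 to 21 without 1 library. The interaction had 692, 1104 with DESeq2, 1638 at an FDR of 5% and 439 to 913 without 1 library.

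Levels depend on the transcript length. With the longest transcript, Dnmt1 had 449 RPKM in Ago2 fl/fl, 315 in Ago2 ADH, 268 in Ago2 null, 499 in Dicer WT and 341 in Dicer KO. In that order Zfp57 had 759, 740, 666, 870.2 and 910, and Dnmt3b 1.88, 3.36, 3.03, 2.24 and 4.08. With the shortest, Dnmt3a had 26.3, 18.3, 15.5, 29.9 and 17.9. With TMM-scaled libraries Dnmt1 had 476 and Uhrf1 85.4 RPKM in Ago2 fl/fl, Zfp57 838 in Ago2 ADH, Uhrf1 84.3 and Trim28 45.2 in Ago2 null, and Dnmt3b 5.08, Dppa3 1141, Zfp57 1097 and Trim28 47.9 in Dicer KO.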
